A study of Mus musculus with 38 samples.

Results

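The translation initiation factor genes were chosen by name: they were the genes in the deposited counts whose symbol begins with Eif and a digit from 1 to 6. Of 59 such symbols, 11 were left out, namely the Argonaute genes Eif2c1 to Eif2c4, the eIF2 kinase genes whose symbols begin with Eif2ak, and Eif1ax, Eif2s3x and Eif2s3y of the sex chromosomes. This left 48 genes of the 23420 counted in each library.

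Initiation is the step of translation in which a ribosome is placed on the start codon of an mRNA. The eIF4F complex binds the mRNA cap and unwinds the leader, eIF2 brings the initiator tRNA to the small ribosomal subunit, eIF3 holds the assembly together, and eIF1, eIF1A and eIF5 control the choice of the start codon before the large subunit joins. In neurons this step is a known point of control for the protein synthesis that long-lasting memory needs, acting through eIF4E-binding proteins and through phosphorylation of eIF2.

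RNA had been sequenced from granule cells of the hippocampal dentate gyrus of male Arc::dVenus mice (C57BL/6J, postnatal weeks 8 to 12), whose transgene puts a destabilized Venus protein under the Arc promoter, so that dVenus+ marks cells with recent activity of that promoter. All mice carried the reporter. The question was how dVenus+ cells differed from neighbouring dVenus- cells in fear conditioned mice (FC, 12 mice, tones ending with foot shocks in a chamber, cells taken 24 h later), in no-shock mice (NS, 4 mice, the same session without shocks) and in home cage mice (HC, 3 mice, no chamber). Each mouse gave 1 dVenus+ and 1 dVenus- library, each made from the aspirated contents of 10 pooled cells, 38 libraries in all. In such pools, fewer cells with a transcript and less of it per cell cannot be told apart.

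The libraries held between 1352288 and 18394761 reads on genes, with a median of 8013005. The sample identifiers of the FC mice fell into 3 series of 2, 4 and 6 mice, and those of all NS and HC mice into a further series, so that FC against NS or HC and the sample series cannot be told apart. The summed level of 8 granule cell markers was lower in the dVenus+ library of 12 of 12 FC, 4 of 4 NS and 3 of 3 HC mice. That of 12 microglial markers was higher in 12 of 12, 4 of 4 and 2 of 3 mice, and in FC it ran from 36.1 to 2153 normalised CPM in dVenus+ libraries against 1.28 to 784 in dVenus- libraries. Every microglial marker had a count in every group, apart from Aif1, which was at 0 in all HC dVenus- libraries. The sums of oligodendrocyte, astrocyte, interneuron and endothelial markers were higher in dVenus+ libraries of 4, 4, 3 and 2 of 12 FC, 2, 3, 1 and 3 of 4 NS, and 1, 2, 2 and 2 of 3 HC mice. The sum of 6 RNAs that stay in the nucleus was higher in dVenus+ libraries of 12 of 12, 4 of 4 and 3 of 3 mice. Singly, in FC mice, Malat1, Meg3, Snhg11 and Rian had fitted log2 fold changes above 0. Miat went the other way at -2.41, and Neat1 had too few counts for the test. The part of these differences in the values below was not tested.

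The initiation factor genes spanned a wide range of levels. Levels between genes were compared as normalised CPM (a gene's share of its library's reads on genes, scaled by TMM factors) per kilobase of exon, averaged over the 38 libraries. Eif1, which scans for the start codon, was highest at 219 CPM per kb, followed by Eif5a, a factor that helps ribosomes through difficult peptide bonds, at 178 and by Eif1b at 73.3. The RNA helicase genes Eif4a1 and Eif4a2 followed at 61.1 and 58.8, with Eif3c, a core subunit of eIF3, at 58.1. These averages pool cell types and histories, so that no order is read from the neighbouring values of Eif4a1, Eif4a2 and Eif3c, whose groups differ by gene. Per role class, the level was highest for Eif2s2 (eIF2) at 21.1, Eif2b2 (eIF2B, the exchange factor that recharges eIF2) at 18.7, Eif6 (which keeps the large subunit apart until joining) at 25.1, Eif4a3 (the helicase of the exon junction complex) at 34.2, Eif4e3 (a relative of the cap-binding protein) at 8.29 and Eif2d (which brings tRNA to the ribosome without eIF2) at 4.48 CPM per kb. Of the eIF4E-binding inhibitors, Eif4ebp3 was at 10.9 CPM per kb, while Eif4ebp1 and Eif4ebp2 were low at 1.91 and 0.657.

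Few genes carried most of the counts. The 8 most abundant members, Eif1, Eif5a, Eif4g2, Eif4a2, Eif5, Eif4a1, Eif4h and Eif3c, made up 52.0% of the summed normalised CPM of all members. Of the 48 genes, 15 had at least 10 counts in each of the 38 libraries and 21 were at 0 in at least 1 library. Eif3j1 was at 0 in every library, and Eif3j2 and Eif4e1b never reached 10 counts. Counting used unique alignments, and 36.6% of the 50-base windows of Eif3j1 and 90.8% of those of Eif3j2 also occur in the other gene of the pair, so their low counts are uncertain.

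**Figure D1:**
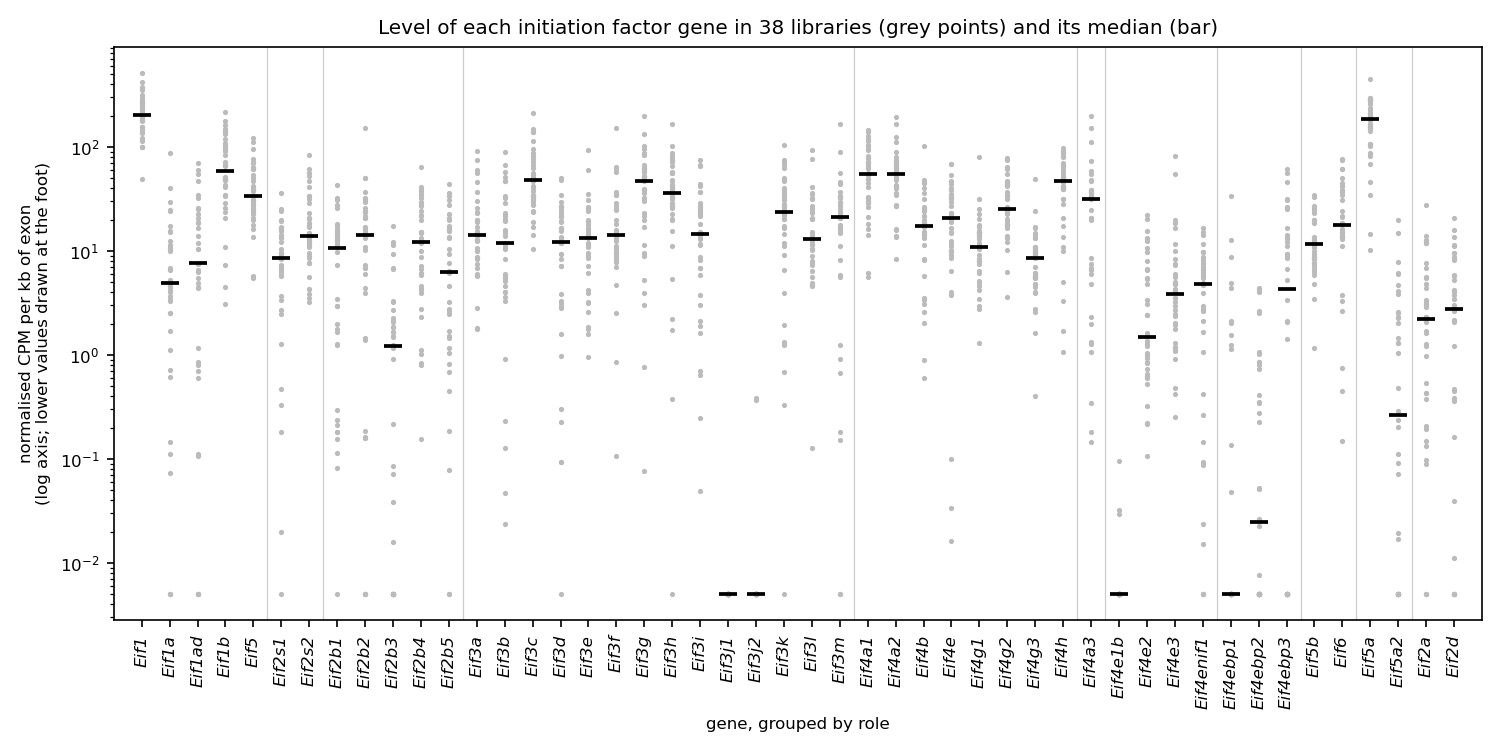
Level of each initiation factor gene in normalised CPM per kb of exon on a log axis, with 1 grey point for each of the 38 libraries, a bar for the median, and genes grouped by role. Eif1 and Eif5a stand above the others with means of 219 and 178 CPM per kb, and many of the lower genes have libraries at the foot of the plot.

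The levels varied widely between libraries of 1 group. Over the members with a count, the median coefficient of variation was 73.4% among FC dVenus+ and 73.8% among FC dVenus- libraries, 105% and 88.4% in NS, and 84.1% and 90.8% in HC. The sum over all members varied less, by 25.0% and 22.8% in FC. In FC the gene with the smallest variation was Eif1 in dVenus+ libraries at 35.7% and Eif3m, an eIF3 subunit, in dVenus- libraries at 34.6%.

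In FC mice no initiation factor gene passed the threshold, which was an adjusted p under 0.05 and an absolute log2 fold change over 1 in edgeR's quasi-likelihood test with the mouse as block. Of the 48 members, 43 had enough counts for the test and 0 were called, against 137 of 9709 genes, or 1.41%. At an unadjusted p under 0.05, 4 members were higher in dVenus+ cells (Eif5, Eif2s2, Eif4g2 and Eif3c, 9.30% of those tested, against 4.17% of all genes) and 1 was lower (Eif4a2, 2.33% against 8.58%). These are counts over few genes, and no test of the list was made.

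Promoter windows of the members that lead the FC comparison are shown because the study turned to the transcription factor CREB, whose binding element reads TGACGTCA. The windows run from 250 bases before to 50 bases after the start site and come from RefSeq on GRCm38.p6, written along the gene's own strand. Capitals mark TGACG, the first 5 letters of that element, on either strand, and it is contained in the whole element. Eif5, Eif2s2 and Eif3c had higher and Eif4a2 had lower values in dVenus+ cells. No window was found for Eif4g2.
Eif5, chr12:111537851-111538150, plus strand: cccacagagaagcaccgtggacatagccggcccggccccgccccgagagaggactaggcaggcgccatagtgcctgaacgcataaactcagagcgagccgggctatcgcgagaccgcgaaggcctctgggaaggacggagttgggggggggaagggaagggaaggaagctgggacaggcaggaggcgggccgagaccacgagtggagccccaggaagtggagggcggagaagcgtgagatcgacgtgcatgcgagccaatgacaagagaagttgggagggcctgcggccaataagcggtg
Eif2s2, chr2:154892857-154893156, minus strand: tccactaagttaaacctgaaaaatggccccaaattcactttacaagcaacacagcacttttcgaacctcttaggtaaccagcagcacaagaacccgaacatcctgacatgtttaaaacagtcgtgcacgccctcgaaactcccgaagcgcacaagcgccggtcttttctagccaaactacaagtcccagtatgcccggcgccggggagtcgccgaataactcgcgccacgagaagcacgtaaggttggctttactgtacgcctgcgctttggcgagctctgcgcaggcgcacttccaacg
Eif3c, chr7:126566317-126566616, minus strand: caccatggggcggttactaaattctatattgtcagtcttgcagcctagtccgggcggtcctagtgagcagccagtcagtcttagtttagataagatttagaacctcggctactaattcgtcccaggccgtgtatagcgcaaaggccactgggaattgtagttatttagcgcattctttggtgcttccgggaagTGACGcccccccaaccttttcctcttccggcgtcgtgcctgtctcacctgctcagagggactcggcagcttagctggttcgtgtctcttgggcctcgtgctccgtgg
Eif4a2, chr16:23107218-23107517, plus strand: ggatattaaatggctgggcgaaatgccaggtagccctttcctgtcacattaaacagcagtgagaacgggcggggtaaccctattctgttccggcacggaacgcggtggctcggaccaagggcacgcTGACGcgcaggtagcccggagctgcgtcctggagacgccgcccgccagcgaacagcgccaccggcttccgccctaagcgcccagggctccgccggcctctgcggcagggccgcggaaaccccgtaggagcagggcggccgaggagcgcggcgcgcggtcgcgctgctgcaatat

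The whole element was in the windows of 0 of the 36 members that had any, against 2.03% of 27025 genes. TGACG was in a window of 20 of the 36, or 55.6%, against 6228 of the 27025 genes. Member windows also had a higher median GC content, 62.7% against 52.7%, and a median of 25 CG pairs against 7. Of the windows shown, Eif3c holds TGACG at -57 and Eif4a2 at -124 from the start site, while those of Eif5 and Eif2s2 hold none. These letters are a description of the windows only.

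Among the genes of start codon selection, Eif5, which makes eIF2 hydrolyse its GTP once the start codon is found, had the smallest p of all members in FC mice. In FC mice its level in dVenus+ libraries was 161 at the lowest, 417 at the median and 824 at the highest normalised CPM, against 37.5, 179 and 228 in dVenus- libraries. It was higher in dVenus+ cells of 10 of 12 mice, and 10 dVenus+ libraries lay above the highest dVenus- library, so that the groups overlapped in 2 dVenus+ libraries. The log2 fold change was 1.41 ± 0.36 (SE, n = 12 mice, unadjusted p = 0.000809, adjusted p = 0.0527). Eif1 was at 104, 390 and 560 in dVenus+ against 209, 346 and 650 in dVenus- libraries. For Eif1, 1 dVenus+ library lay below all dVenus- libraries and the others lay within their range, and the log2 fold change was 0.05 ± 0.30. Eif1a, Eif1ad and Eif1b had log2 fold changes of 1.31 ± 1.19, 0.22 ± 1.32 and 0.06 ± 0.53.

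Of the subunit genes of eIF2, the carrier of the initiator tRNA, 2 were among the members, and the difference between them was not tested. Eif2s2, the beta subunit, was at 29.2, 123 and 564 CPM in dVenus+ against 21.6, 54.6 and 140 in dVenus- libraries of FC mice. It was higher in dVenus+ cells of 11 of 12 mice, although 8 of the 12 dVenus+ libraries fell within the dVenus- range. The log2 fold change was 1.40 ± 0.41 (unadjusted p = 0.00287, adjusted p = 0.101). Eif2s1, the alpha subunit that carries the phosphorylation site, had a log2 fold change of 0.02 ± 0.84. Of the 6892 windows of 50 bases in Eif2s2, 10.3% also occur in another gene, mostly in Gm9892 (10.1%). The whole span of Eif2s2, introns included, overlaps the gene a on the opposite strand, and the reads carry no strand information.

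All 5 eIF2B genes had fitted log2 fold changes above 0 in FC mice, between 0.05 and 1.50 (3 of 5 with library totals alone in place of TMM), and none had an unadjusted p under 0.05. Eif2b2 had the largest of all members, 1.50 ± 1.13 (unadjusted p = 0.198). Its levels were 0.352, 42.8 and 94.5 CPM in dVenus+ against 0, 19.0 and 60.3 in dVenus- libraries, and it was higher in 9 of 12 mice. All but 2 of the dVenus+ libraries lay within the dVenus- range.

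Of the 14 eIF3 genes, 12 were tested in FC mice, and 9 of these had log2 fold changes above 0 (8 with library totals alone). Eif3c was at 96.0, 268 and 741 CPM in dVenus+ against 36.6, 114 and 266 in dVenus- libraries, with 6 dVenus+ libraries above all dVenus- libraries. It was higher in 9 of 12 mice, with a log2 fold change of 1.33 ± 0.43 (unadjusted p = 0.00635, adjusted p = 0.148). Eif3g, the subunit that binds RNA, followed at 1.08 ± 0.59 and Eif3b, a scaffold subunit, at 1.00 ± 0.83. The lowest value was that of Eif3k, a peripheral subunit, at -1.13 ± 0.65. None of these 3 reached an unadjusted p of 0.05.

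The eIF4F genes and their helpers went both ways. Eif4g2, a relative of the eIF4G scaffold that lacks the site for eIF4E, was at 179, 442 and 802 CPM in dVenus+ against 103, 219 and 434 in dVenus- libraries of FC mice. It was higher in 11 of 12 mice, and 7 dVenus+ libraries lay above all dVenus- libraries. The log2 fold change was 0.90 ± 0.26 (unadjusted p = 0.00283, adjusted p = 0.101), which is below the size limit of 1. Eif4a2 was at 44.2, 219 and 395 CPM in dVenus+ against 185, 317 and 589 in dVenus- libraries. It was lower in 10 of 12 mice, and 5 dVenus+ libraries lay below all dVenus- libraries. Its log2 fold change was -0.78 ± 0.32 (unadjusted p = 0.0261, adjusted p = 0.279). Eif4a1, the other eIF4A helicase gene, was at 126, 308 and 605 against 69.8, 279 and 623 CPM, with overlapping groups and a log2 fold change of 0.27 ± 0.32. The remaining 5 genes, Eif4b, Eif4e, Eif4g1, Eif4g3 and Eif4h, had log2 fold changes between -0.66 and -0.07, and none had an unadjusted p under 0.05. Of the 50-base windows, 28.4% of Eif4a1 and 13.6% of Eif4a2 also occur in other genes, and Eif4a2 overlaps Rfc4 on the opposite strand.

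Of the remaining classes in FC mice, Eif6 had a log2 fold change of 1.31 ± 0.75 (unadjusted p = 0.0958) and was higher in 9 of 12 mice, with 0.406, 107 and 207 CPM in dVenus+ against 1.22, 44.6 and 121 in dVenus- libraries. Eif5b, the GTPase of subunit joining, was at 0.31 ± 0.36. Eif5a was at 34.9, 437 and 665 against 193, 422 and 707 CPM, with near-equal medians and a log2 fold change of -0.47 ± 0.39. Eif4a3 was at 1.09 ± 1.04, Eif2a at -0.04 ± 1.10 and Eif2d at -0.55 ± 1.15. The tested relatives and partners of eIF4E (Eif4e2, Eif4e3 and Eif4enif1) lay between -0.01 and 0.56.

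The eIF4E-binding inhibitors, which keep eIF4E from the eIF4G scaffold, could be tested for Eif4ebp3 alone in FC mice, at 0.75 ± 1.15. Its sequence shares 65.5% of its 50-base windows with another annotated gene. Eif4ebp1 had a count in 8 of 12 dVenus+ and 2 of 12 dVenus- libraries of FC mice, with 325 and 38 counts in total, and Eif4ebp2 in 5 and 9 of 12, with 302 and 934 counts. Eif4ebp1 is described because its values were seen: it failed the filter of 10 counts in 12 libraries and was called only under a filter of 5 counts in 10 of the 38 libraries. It met that filter mainly through the dVenus+ libraries, which were 10 of the 12 with a count, so that call is no evidence of a difference. Without any filter the adjusted p was 0.119. In NS mice it had a count in 1 dVenus+ library alone, with 73.6 CPM, and in HC mice likewise, with 27.9 CPM.

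**Figure D2:**
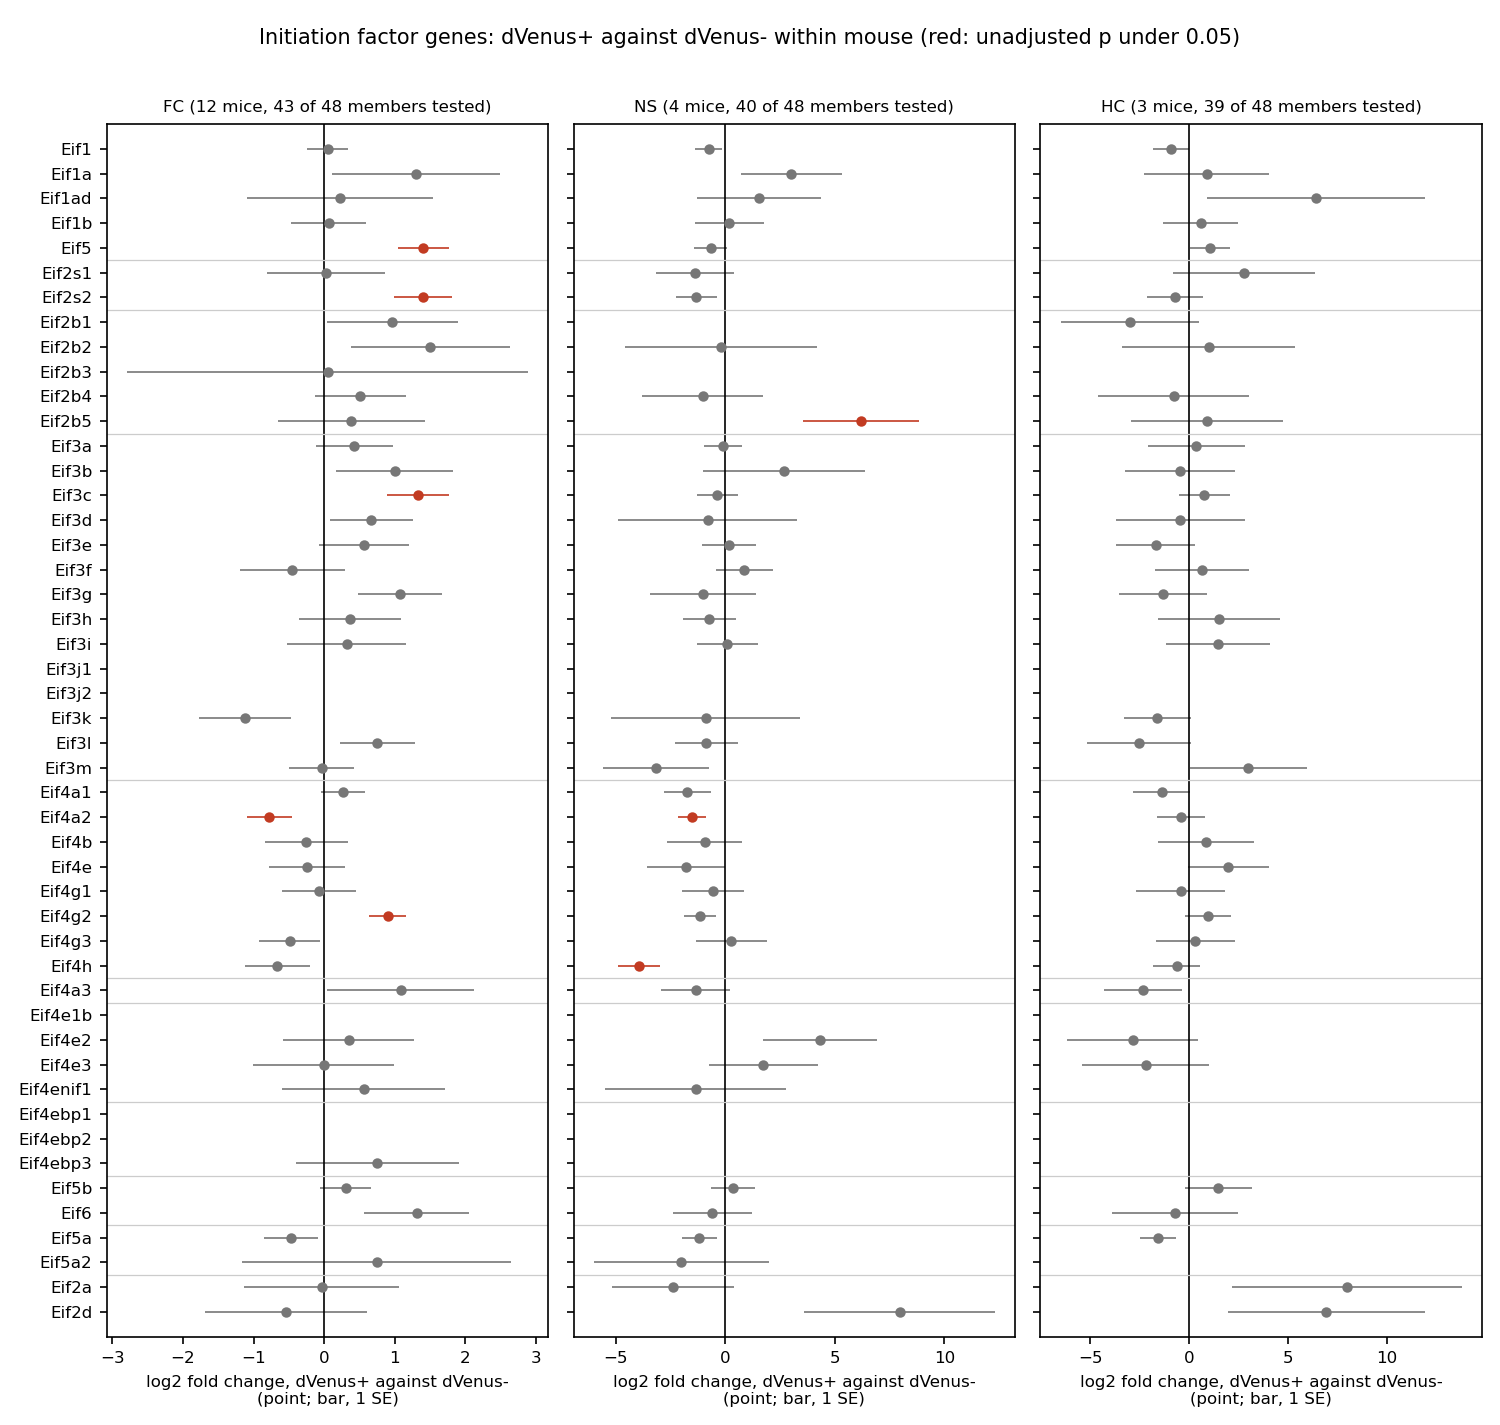
Fitted log2 fold change of dVenus+ against dVenus- cells for each tested initiation factor gene in FC, NS and HC mice, with bars of 1 SE, genes in order of role, and an unadjusted p under 0.05 in red. The 3 panels have different horizontal scales. In FC mice 30 of 43 points lie above 0 and 13 below, in NS mice 27 of 40 below and in HC mice 19 of 39 below (23, 32 and 24 below without scaling beyond library totals), and no point passed the adjusted threshold.

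Over all 43 tested members, the median log2 fold change in FC mice was 0.35, against -0.21 over all genes tested, and 30.2% of the members against 56.9% of all genes had values below 0. This direction depends on the scaling: with library totals alone, 23 of the 43 were below 0 and the median was -0.09, against -0.53 over all genes. The distance between members and all genes was 0.56 with TMM and 0.44 without it. The members were measured at a higher level than most genes, with a median of 6.42 against 5.09 log2 CPM, and with a smaller median SE of 0.64 against 1.02.

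The 5 members led by Eif5 were also read within each sample series of FC mice. The mean log2 ratio of Eif5 was 2.10 in the series of 2 mice, 0.62 in that of 4 and 1.63 in that of 6. Eif4g2 gave 1.07, 0.98 and 0.72, and Eif4a2 gave -1.27, -1.19 and -0.42. Both kept their sign in all 3 series, as did Eif5. Eif2s2 gave 1.03, 0.45 and 2.04, and Eif3c gave 2.16, 0.15 and 1.67, with Eif3c higher in 1 of 4 mice of the middle series. With library totals in place of TMM the log2 fold changes of the 4 higher genes were between 0.49 for Eif4g2 and 1.01 for Eif2s2, and the unadjusted p-values lay between 0.0528 and 0.179. The dVenus+ value was then the higher one in 9 of 12 mice for Eif5, Eif2s2 and Eif3c and in 8 of 12 for Eif4g2, and Eif4a2 was lower in 10 of 12. For Eif2b2 and Eif6 the higher value was then in dVenus+ cells of 7 of 12.

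**Figure D3:**
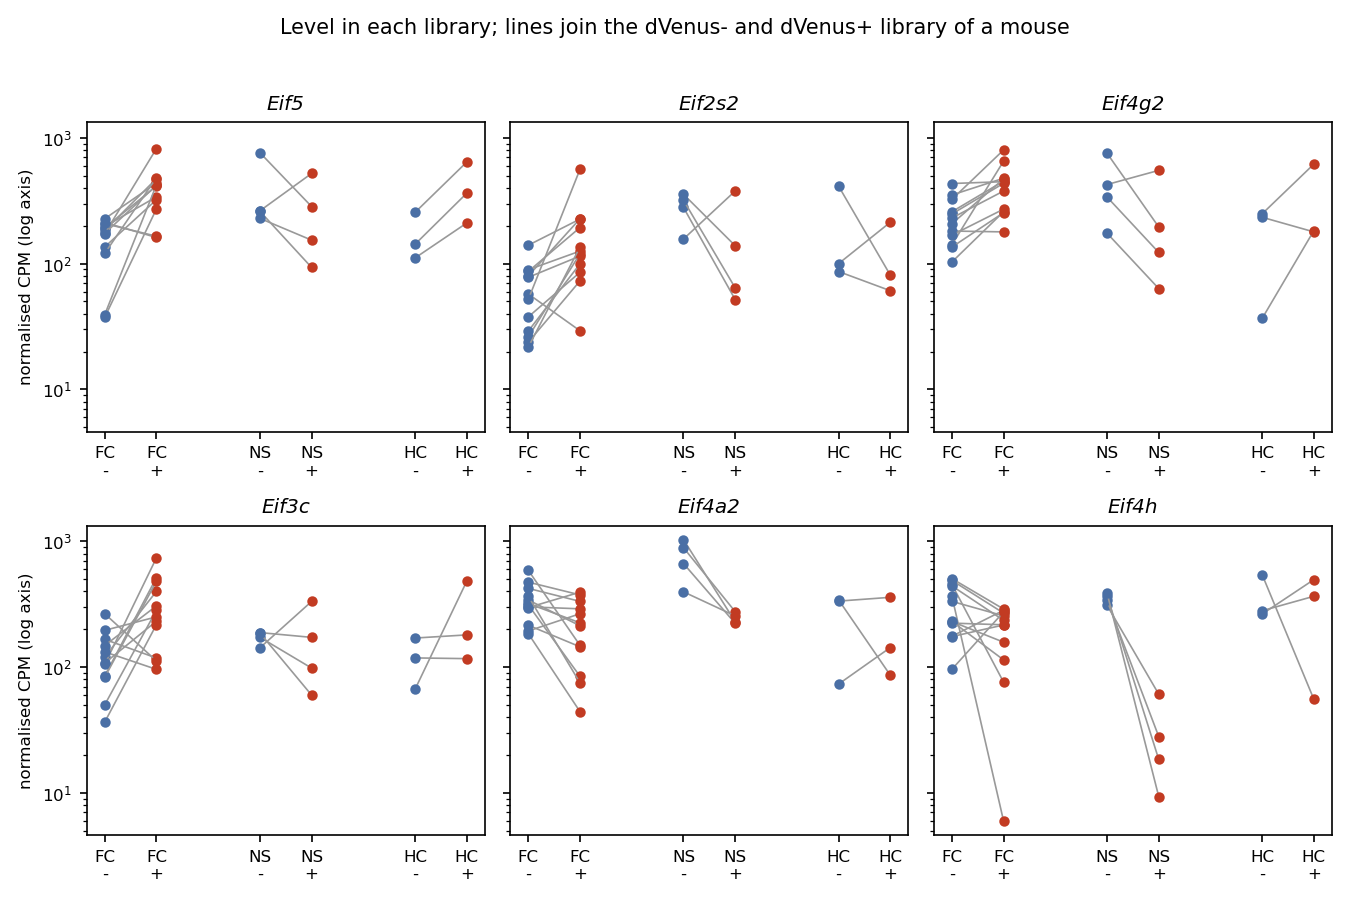
Normalised CPM of 6 initiation factor genes in every library on a log axis, with dVenus- (blue) and dVenus+ (red) libraries of a mouse joined by a line, for FC (12 mice), NS (4 mice) and HC (3 mice). In FC mice 10 dVenus+ libraries of Eif5 lie above the highest dVenus- library at 228, and in NS mice the dVenus+ libraries of Eif4h, at 9.35 to 60.9, lie below the dVenus- libraries, at 311 to 389.

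In NS mice 40 members were tested and 0 were called, as were 0 of 8187 genes, or 0%. At an unadjusted p under 0.05, 1 member was higher in dVenus+ cells (2.5% of those tested, against 1.82% of all genes) and 2 were lower (5%, against 2.87%). The smallest adjusted p among members was 0.333.

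Eif4h, which helps the eIF4A helicases to unwind the leader, had the smallest p of the members in NS mice. Its level was 60.9, 18.5, 28.0 and 9.35 CPM in the dVenus+ libraries of mice 18, 19, 20 and 21, against 311, 371, 340 and 389 in their dVenus- libraries. The groups did not overlap, and all 4 mice had the lower value in dVenus+ cells. The log2 fold change was -3.93 ± 0.96 (SE, n = 4 mice, edgeR unadjusted p = 0.000569, adjusted p = 0.333). Eif4a2 was at 230, 223, 276 and 256 CPM in dVenus+ against 1035, 667, 892 and 397 in dVenus- libraries. These groups did not overlap either, and the log2 fold change was -1.54 ± 0.64 (edgeR unadjusted p = 0.0257, adjusted p = 0.991). Without mouse 18, 19 or 20 the unadjusted p of Eif4a2 lay between 0.0563 and 0.105. The share of all genes whose groups do not overlap was not counted, here or for the NS and HC genes below. Groups that do not overlap are therefore given as description only.

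Eif2b5, the catalytic subunit of eIF2B, was the 1 member with higher dVenus+ values at an unadjusted p under 0.05 in NS mice, where 13 members had log2 fold changes above 0. It was at 72.2, 50.9, 59.3 and 87.9 CPM in dVenus+ against 3.96, 3.79, 0 and 0.48 in dVenus- libraries of mice 18 to 21. All 4 dVenus+ libraries lay above all dVenus- libraries, which held few counts. The log2 fold change was 6.20 ± 2.67 (edgeR unadjusted p = 0.0308, adjusted p = 0.991), and it was 4.91 without mouse 20 (unadjusted p = 0.0936) and 5.39 without mouse 21 (0.107). Eif4e2, which binds caps without promoting initiation and was picked out after its values were seen, also had groups that did not overlap, at 73.2, 18.2, 12.1 and 167 against 1.68, 1.63, 9.59 and 0.80 CPM, with a log2 fold change of 4.32 ± 2.59 (edgeR unadjusted p = 0.112). With library totals alone its groups overlapped and it was higher in 3 of 4 mice.

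The genes that led in FC mice had other values in NS mice. Eif5 was at 284, 93.2, 154 and 522 CPM in dVenus+ against 763, 261, 229 and 263 in dVenus- libraries, with a log2 fold change of -0.67 ± 0.76. Eif2s2 was at 139, 51.8, 64.2 and 378 against 356, 280, 320 and 157, with -1.34 ± 0.94. Eif4g2 was at 552, 196, 63.3 and 123 against 426, 756, 175 and 339, with -1.16 ± 0.74. In each of these 3 genes, 3 of 4 mice had the lower value in dVenus+ cells (4 of 4 for Eif5 and Eif2s2 with library totals alone) and the groups overlapped. Eif3c was at 98.2, 59.9, 172 and 333 against 173, 187, 188 and 142, with -0.37 ± 0.92.

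The median log2 fold change over the 40 tested members in NS mice was -0.74, against 0.20 over all genes tested, and 67.5% of the members against 46.1% of all genes had values below 0. With library totals alone the medians were -1.24 and -0.31, and 32 of the 40 members were below 0. Of the 11 role sums, that of the 8 eIF4F genes is given because its values were seen: with TMM it was the 1 sum lower in all NS mice, against 5 sums with library totals alone. It was lower in dVenus+ cells of 4 of 4 mice, with 635 to 1292 CPM against 2077 to 2407 in dVenus- libraries and a mean log2 ratio of -1.36 ± 0.43 (SD, n = 4). The groups did not overlap, and with library totals alone the ratio was -1.86 ± 1.13, again lower in 4 of 4 mice. In FC mice the same sum was lower in 7 of 12, with -0.07 ± 0.27 (SD, n = 12), and in HC mice in 1 of 3. The 8 genes include Eif4h and Eif4a2, described above, so the sum is not a separate observation. In NS mice Eif4h had a mean of 29.2 CPM in dVenus+ against 353 in dVenus- libraries, and Eif4a2 246 against 748. Of the 8 fitted log2 fold changes in NS mice, 7 were below 0 and 1 above.

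In HC mice 39 members were tested and 0 were called, against 2 of 7588 genes, or 0.0264%. No member had an unadjusted p under 0.05 in edgeR, while 1.52% of all genes did so with higher and 2.4% with lower values in dVenus+ cells. Of the members, 20 were above and 19 below 0, with a median of 0.30 against 0.11 over all genes. With library totals alone the medians were -0.50 and -0.67 and 24 of the 39 members lay below 0.

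Eif5 had the higher value in the dVenus+ library of each HC mouse with TMM, and of 2 of 3 with library totals alone. It was at 211, 643 and 364 CPM in mice 15, 16 and 17, against 111, 256 and 143 in their dVenus- libraries. The ranges overlapped in 1 dVenus+ library, and the log2 fold change was 1.05 ± 1.02 (SE, n = 3 mice, edgeR unadjusted p = 0.315), or 0.28 with library totals alone (unadjusted p = 0.824). Eif5a was lower in each HC mouse, at 110, 255 and 395 against 472, 674 and 667 CPM. Its groups did not overlap with TMM and overlapped without it, and the log2 fold change was -1.57 ± 0.91 (edgeR unadjusted p = 0.0966). Eif4h was at 55.4, 497 and 366 against 544, 265 and 281 CPM, so that it had the higher value in dVenus+ cells of 2 of 3 mice (1 of 3 with library totals alone). The sum of the relatives and partners of eIF4E (Eif4e1b, Eif4e2, Eif4e3 and Eif4enif1) was 15.8 to 22.8 CPM in dVenus+ against 63.0 to 210 in dVenus- libraries of HC mice, lower in 3 of 3 mice with and without TMM, with a mean log2 ratio of -2.82 ± 1.00 (SD, n = 3). This sum was singled out after its values were seen. Of the 11 role sums, 2 were lower and 1 was higher in all HC mice with TMM, and 4 and 0 with library totals alone. In NS mice it was higher in dVenus+ cells of 3 of 4 mice (2 of 4 with library totals alone), with 1.63 ± 2.53 (SD, n = 4), and the difference between the histories was not tested for the sum. Eif2d was at 3.29, 25.6 and 116 against 2.82, 0 and 0.292 CPM, with groups that did not overlap with TMM and overlapped without it, and a log2 fold change of 6.92 ± 4.99, whose SE shows how little the near-absent dVenus- counts fix it.

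Whether the difference between dVenus+ and dVenus- cells itself differed between training histories was put to an interaction test with the 38 libraries fitted together, which covered 45 members among 14075 genes. For FC against NS, 0 members had an adjusted p under 0.05, as did 0% of all genes, and 6 had an unadjusted p under 0.05, against 5.42% of all genes. These 6 were Eif4h, Eif4g2, Eif2s2 and Eif5, with log2 differences (FC minus NS) of 3.22 ± 1.02, 2.02 ± 0.65, 2.68 ± 0.98 and 2.02 ± 0.74, and Eif2b5 and Eif2d, with -5.85 ± 2.39 and -8.71 ± 4.11. Their unadjusted p-values ran from 0.00395 for Eif4h to 0.0437 for Eif2d, and each had an adjusted p of 0.876. The median difference over the members was 1.07, against -0.69 over all genes. For FC against HC, 0 members had an adjusted p under 0.05, as did 0% of all genes, and 0 had an unadjusted p under 0.05, against 6.34% of all genes, with a median difference of 0.22 against -0.87. The count of 0 changed with the HC mouse left out and with the fit. At an unadjusted p under 0.05 there were 4 members without mouse 15, 2 without mouse 16 or mouse 17, 6 with no replicate block and 11 with DESeq2's Wald test. For FC against NS these counts were 4 to 7 without 1 NS or HC mouse, 7 with no replicate block and 10 with DESeq2's Wald test. The share of all genes at that threshold was not counted under these other fits, so the counts are description only.

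As a whole, the summed level of the 48 genes was 2817, 5114 and 8418 normalised CPM (lowest, median and highest) in FC dVenus+ libraries against 3261, 3882 and 5984 in FC dVenus- libraries. It was higher in dVenus+ cells of 8 of 12 FC mice, with a mean log2 ratio of 0.24 ± 0.44 (SD, n = 12). The ratio was 0.49 in the series of 2 mice, -0.17 in that of 4 and 0.43 in that of 6. In NS mice 18 to 21 the sums were 4604, 2098, 3928 and 6444 against 8808, 6072, 5570 and 4977, with a mean ratio of -0.65 ± 0.80 (SD, n = 4). In HC mice 15 to 17 they were 2588, 4697 and 6069 against 4720, 4743 and 4373, with -0.14 ± 0.68 (SD, n = 3). The groups overlapped in all 3 histories.

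These sums depended on the scaling. TMM factors ran from 0.306 to 1.83 over the libraries. As a plain share of the reads on genes, the members took 0.195% to 0.821% in FC dVenus+ and 0.317% to 0.782% in FC dVenus- libraries, and the share was higher in dVenus+ cells of 7 of 12 mice. In NS mice the share was lower in dVenus+ cells of 4 of 4 mice, with medians of 0.333% and 0.699%, and in HC mice of 3 of 3, with 0.158% and 0.655%. Without TMM the mean log2 ratio (± SD over mice) was -0.14 ± 0.86 for FC, -1.15 ± 0.68 for NS and -1.06 ± 1.08 for HC.

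**Figure D4:**
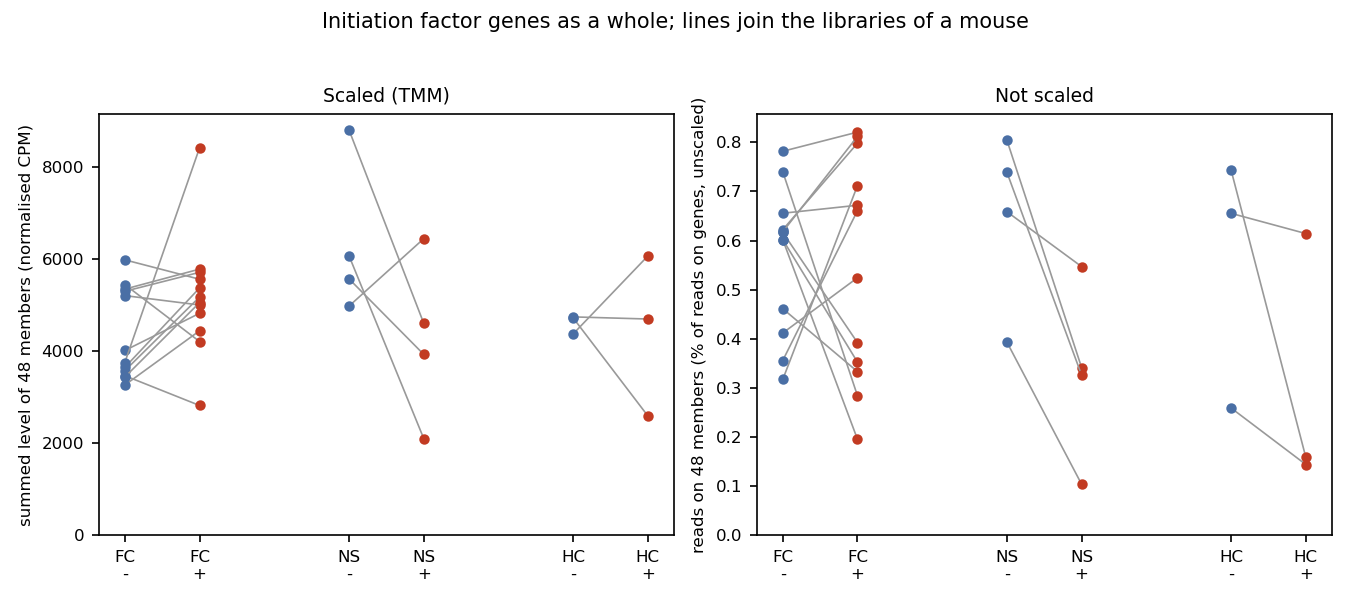
Summed level of the 48 initiation factor genes in each library, as TMM-normalised CPM (left) and as a percentage of the reads on genes without scaling (right), with the libraries of a mouse joined by a line. With TMM 8 of 12 FC mice have the higher sum in dVenus+ cells, and without scaling 7 of 12 do, while 0 of 4 NS and 0 of 3 HC mice have the higher unscaled share in dVenus+ cells.

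Other genes of translation were read from lists of names. Of 9 elongation and termination genes, which move the ribosome along the mRNA and release the finished protein, all were tested in each history and 0 had an unadjusted p under 0.05 in edgeR. FC, NS and HC mice gave median log2 fold changes of -0.06, 0.75 and -1.15, against -0.21, 0.20 and 0.11 over all genes tested. Of 26 regulators of initiation, 25 were tested in FC mice and 0 were called, against 1.41% of all genes, and 3 had an unadjusted p under 0.05 with lower values in dVenus+ cells, a share near the 8.58% of all genes. These 3 were Paip2, which keeps the poly(A)-binding protein off mRNA, at -1.11, Pdcd4, which binds and blocks eIF4A, at -1.41, and Eef2k, the kinase that inhibits elongation, at -2.68. In NS mice 24 and in HC mice 20 of the regulators were tested, and 0 had an unadjusted p under 0.05.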

How the data were processed

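The study collected the contents of 10 cells per library and prepared full-length cDNA with SmartSeq2 and Nextera XT, sequenced as single reads of 50 bases without strand information. The authors aligned the reads to mm10 with TopHat2 2.0.13, kept unique alignments and used HTSeq 0.6.0 with NCBI transcripts for counting (versions also given in the submitters' processing notes), and the deposited values are these raw counts per gene. Entries that name no gene were left out, and reads outside genes were 16.4% to 59.7% of the uniquely aligned reads. A second deposited table held the same counts for 11802 of the genes, 45 members among them, and entered no test. Libraries were grouped by their titles, because the description labels of some NS and HC libraries name other libraries.

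Each training history was fitted on its own with edgeR 4.0.16 in R 4.3.3: TMM normalisation, estimateDisp, glmQLFit and glmQLFTest at their defaults, two-sided, with mouse and cell type as terms, for genes that reached 10 counts in 12 (FC), 4 (NS) or 3 (HC) or more libraries. P-values were adjusted after Benjamini-Hochberg over all genes tested, and a gene was called at an adjusted p under 0.05 with an absolute log2 fold change over 1. The SE is the absolute log2 fold change divided by the root of the F statistic. Interactions came from 1 fit of all 38 libraries for genes that reached 10 counts in 3 or more of them. The mouse was a block because both libraries of a mouse come from the same animal. The deviations of such pairs from their group means correlated with medians of 0.0388 (FC), -0.0174 (NS) and 0.0109 (HC). Log2 ratios of sums used a pseudocount of 1. Exon lengths were taken from a GRCm38 annotation, the build of the files. The fits were also run on simulated counts, whose spread was set lower than that of these data. That run therefore does not show how the fits perform at the spread seen here. Alternatives used DESeq2 1.42.0, other filters and scalings, and fewer mice. A paired Wald test in DESeq2, the kind of test that the study itself used, is among them.

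The members, role classes and lists were chosen with earlier results of these data known. Named with statistics are members with an unadjusted p under 0.05 in FC, NS or HC, the 5 with the largest absolute log2 fold change in FC, and the member with the highest level per kb in each role class. Others are named to complete a class.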

Additional observations from a re-analysis of the deposited data

Results flagged for a closer look

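Values of 1 library far from the other 3 of its group were looked for in the NS mice, in 51 groups of 4 values. The cutoff gives such a library by chance in about 1 in 20 groups if values are normally distributed. Many values here were at or near 0, so that rate does not apply. A library with counts beside 3 at 0 is always flagged, and a group with 0 throughout never is. Of the 51 groups, 5 had such a library, given as description only. Eif5 was at 763 normalised CPM in the dVenus- library of NS mouse 18, and the nearest of the others was at 263. Eif2d was at 153 in the dVenus+ library of mouse 18, against 15.3 for the nearest, and at 70.8 in the dVenus- library of mouse 21, against 0 in the other 3. Eif4ebp3 was at 1.07 in the dVenus- library of mouse 18 and at 0 in the others, and its log2 ratio of dVenus+ to dVenus- was accordingly -1.05 in that mouse and 0 in the others.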

How the results depend on the processing

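In FC mice, where edgeR called 0 members, 1 was called with DESeq2's size factors (Eif5, adjusted p = 0.0420), 1 with a filter of 5 counts in 10 of 38 libraries (Eif4ebp1), 1 with the newer quasi-likelihood method of edgeR (Eif5, adjusted p = 0.0195), 2 with no replicate block (Eif5 and Eif3c) and 3 with DESeq2's Wald test (Eif5, Eif2s2 and Eif3c). Over all genes that Wald test called 1635 of 9709. Shares of all genes are not given for the size factors, the filter of 5 counts or the fit with no replicate block. These member counts are therefore description only. Leaving out 1 FC mouse gave 0 to 1 calls, with Eif5 called without mouse 6 (adjusted p = 0.0401) or mouse 9 (0.0377) and Eif2s2 without mouse 4 (0.0489), and over these 12 fits the adjusted p of Eif5 ran from 0.0377 to 0.117. The newer method, the unscaled fit and the subset of 8 mice were chosen after the data were seen. The 5 FC members at an unadjusted p under 0.05 became 10 with DESeq2's Wald test, 1 (Eif4a2) with no scaling beyond library totals, and 4 to 6 without 1 mouse. The unadjusted p of Eif4a2 was 0.0593 without mouse 3, 0.0577 without mouse 4, 0.0628 with no replicate block, 0.390 in the 6 mice of the largest sample series and 0.214 in the 8 mice left without mice 3, 4, 5 and 7.

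In NS mice DESeq2's Wald test called 4 members (Eif2b5, Eif2d, Eif4e2 and Eif4h) and in HC mice 2 (Eif2a and Eif2d). Over all genes it called 666 of 8187 in NS and 625 of 7588 in HC mice. At an unadjusted p under 0.05 it gave 6 and 3 members, the newer method gave 5 in NS and the unscaled fit 1 in HC. At that threshold, leaving out 1 mouse gave 1 to 4 members in NS (1 without mouse 20) and 0 to 1 in HC. DESeq2's Wald test called interactions in 8 of 45 members for FC against NS and in 4 of 45 for FC against HC, against 0 in edgeR. Over all 14075 genes fitted, the same test called 1192 and 1583, and the members were not tested against all genes. The mean log2 ratio of the summed level in HC was -1.06 without TMM. It was -0.44 to 0.23 without 1 HC mouse and -0.99 to -0.36 without 1 NS mouse. The median log2 fold change of the members without 1 mouse was 0.14 to 0.49 in FC, -0.89 to -0.27 in NS and -0.23 to 0.63 in HC, so that its sign in HC rests on single mice.

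Over all genes, the 137 calls in FC became 1635 with DESeq2's Wald test, 424 with the newer method, 80 without scaling, 14 in the 8 mice and 0 in the 6, and 56 to 118 without 1 mouse. In NS and HC the calls were 0 and 2 in edgeR, and 666 and 625 with DESeq2's Wald test. The cause of these differences was not tested. Apart from Eif5 and Eif3c in FC, the fit with no replicate block changed no call of a member. Interactions were not refitted without each FC mouse. No value at an unadjusted p under 0.05 changed sign under an alternative that was run. Precision is limited by 10-cell libraries and by 4 NS and 3 HC mice: the median SE of the members was 0.64 in FC, 1.65 in NS and 2.45 on the log2 scale in HC.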
